A study of Arabidopsis thaliana with 12 samples.

Results

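The genes encoded in the mitochondrial genome of Arabidopsis thaliana were examined in rosette leaf RNA of an atx3/4/5 mutant and of wild type. They are the 146 genes whose identifiers begin with ATMG, out of 33557 genes in the authors' deposited expression table. ATX3, ATX4 and ATX5 are histone H3 lysine 4 (H3K4) methyltransferases of the nucleus, and the study asked which genes and regions depend on them. All plants were of the Columbia (Col-0) ecotype, 4 weeks old, and grown in days of 16 h light (22 °C) and nights of 8 h (20 °C). RNA sequencing covered 2 libraries of wild type and 2 libraries of the atx3/4/5 mutant. The alleles of the mutant are not given. The chromatin libraries of the series, which also include an sdg2 mutant, were not used here.

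The mitochondrial genome of a flowering plant encodes a small part of the respiratory chain, some ribosomal proteins, proteins of cytochrome c assembly, transfer RNAs and the ribosomal RNAs of the mitochondrial ribosome, next to many open reading frames of unknown function. All other mitochondrial proteins, including the RNA polymerases that read this genome, are encoded in the nucleus and imported. In plant mitochondria a poly(A) tail marks an RNA for decay, unlike in the cytosol, and mitochondrial ribosomal RNA ends without a long tail. Per the labels' protocols, RNA was isolated with an RNeasy plant kit and made into libraries with an NEBNext mRNA kit, so these data describe the mitochondrial RNA that passed through an mRNA preparation. The same protocol text names an extraction of nuclei, and it does not say whether this step was part of the RNA work.

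Each value below is the authors' FPKM, which scales fragment numbers by transcript length and by the size of the library, combined by the authors from the 2 libraries of a genotype. No value per library was used here, and the spread between libraries is therefore unknown. A gene was called when the authors' deposited table gave it status OK and a q-value (a p-value adjusted over all tested genes) under 0.05. Fold changes are atx3/4/5 over wild type, without a pseudocount. In leaf RNA of a whole organ, fewer cells of a type or fewer mitochondria cannot be told apart from less RNA per cell.

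Leaf genes dominated both genotypes, with FPKM values of 9297 in the mutant against 16497 in wild type for RBCS1A, the small subunit of Rubisco. RBCS1B had 796 and 786, RCA had 2165 and 2397, and PSBO1 had 1830 and 3878. None of these leaf genes was called, with a deposited q of 0.382 for RBCS1A. A further leaf gene, AT1G29930, had too many reads to be processed and is described below. Of the root hair genes, EXPA7 and RHD6 were listed at 0 in both and SHV2 had 0.0519 and 0.0636. All 3 flower genes had low values that were higher in the mutant: 1.23 against 0.536 for AP1, 0.734 against 0.184 for AP3 and 0.316 against 0.182 for AG. AP1 and AP3 were not called and AG was not tested. The seed genes CRA1 and OLEO1 were at or near 0, and the part of such cells in the results was not tested. FPKM values of the 3 targeted genes were 4.38 and 4.17 for AT3G61740 (ATX3), 2.88 and 1.05 for AT4G27910 (ATX4) and 3.76 and 3.93 for AT5G53430 (ATX5), in atx3/4/5 and wild type respectively. The authors' deposited table called none of them, and the lowest q of the 3 was 0.0541, for AT4G27910.

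All 3 mitochondrial ribosomal RNAs rose in atx3/4/5. RRN5, RRN18 and RRN26, which encode the 5S, 18S and 26S RNAs of the mitochondrial ribosome, were 7.14-fold, 6.17-fold and 3.99-fold higher in the mutant. A further member, ATMG00030, which has no name in the gene table used here and begins 502 bp after the listed end of RRN26, was 2.84-fold higher. RefSeq lists RRN26 as 601 bp longer than the authors' deposited table does, which is more than that gap. Where the loci overlap, reads of ATMG00030 and of a longer RRN26 RNA cannot be told apart. The members that encode respiratory chain subunits, ATP synthase subunits, ribosomal proteins or cytochrome c assembly proteins gave no call in either direction. Only 11 of the named ones were tested, and over all tested genes 10.3% were called.

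Of the 146 members, 29 were tested by the authors (19.9%, against 56.7% of all genes in the table), and 117 were listed as not tested. The authors' deposited test called 4 of the 29 as higher in atx3/4/5 (13.8%), where 4.92% of all 19021 tested genes were called higher. It called 0 members as lower, where 5.4% of all tested genes were called lower. In both directions together, 10.3% of all tested genes were called. At an unadjusted p under 0.05, 5 members were higher and 0 were lower, against 11.9% and 13.7% of all tested genes. The 29 tested members passed the authors' own filter and do not stand for all 146. RRN5 and RRN18 lie 170 bp apart and ATMG00030 may overlap a longer RRN26, so the 4 calls may not be independent.

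RRN5 (ATMG01380) lies at 361062 to 361179 of the mitochondrial genome in the authors' deposited table, on TAIR10, and is 118 bp long. Its authors' FPKM was 1721 in the mutant against 240.9 in wild type, a log2 ratio of 2.84, with a deposited q of 0.001836. It ranked number 32 among all genes of the table in atx3/4/5 and number 669 in wild type. A q of 0.001836 was the smallest value in the authors' deposited table, reached by every gene with a p of 5e-05. A locus as short as RRN5 can be shorter than the fragments that are sequenced, and FPKM at such a length depends on the authors' length correction, which no source used here describes.

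RRN18 (ATMG01390) follows 170 bp after RRN5, at 361350 to 363284, and is 1935 bp long. Its authors' FPKM was 255 in the mutant against 41.4 in wild type, a log2 ratio of 2.62, and the authors' deposited table listed q = 0.001836. RRN26 (ATMG00020) lies on the other side of the map's origin, at 8848 to 11415, and is 2568 bp long in that table. The authors' FPKM of RRN26 was 65.9 in the mutant against 16.5 in wild type, a log2 ratio of 1.996, again with a deposited q of 0.001836. Among all genes, RRN18 moved from rank 3648 in wild type to rank 408 in atx3/4/5, and RRN26 from rank 6872 to rank 1937.

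ATMG00030, at 11918 to 12241 and 324 bp long, had an authors' FPKM of 171 in the mutant against 60.3 in wild type. Its log2 ratio was 1.51, with a p of 0.00155, and its q was 0.0223 in the authors' deposited table. In wild type its level was above that of RRN18, and in atx3/4/5 it was below. None of the 4 called members shares its listed locus with another gene of the table, although ATMG00030 may overlap the longer RRN26 of RefSeq. Changes of this size were also found elsewhere in the table: of 18898 tested genes above 0 in both genotypes, 344 had a larger log2 ratio than RRN5, 414 than RRN18, 704 than RRN26 and 1274 than ATMG00030.

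**Figure D1:**
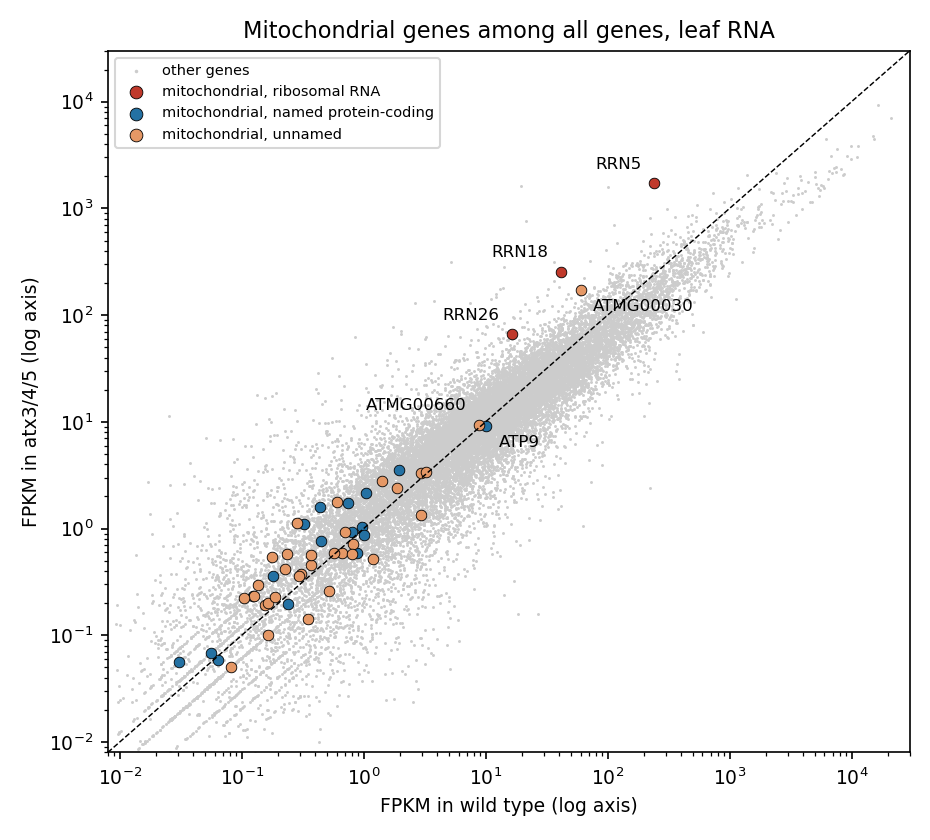
Authors' FPKM in wild type (x axis, log) against atx3/4/5 (y axis, log) for the 52 mitochondrial members above 0 in both genotypes, coloured by kind, over all other genes above 0 in both (grey). The dashed line marks equal values. RRN5, RRN18, RRN26 and ATMG00030 lie above the line, and ATP9 and ATMG00660 lie beside it.

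The proportions of the 3 ribosomal RNAs also differed between the genotypes' values. The FPKM of RRN5 was 6.74 times that of RRN18 in atx3/4/5 and 5.82 times in wild type. RRN18 stood at 3.87 times the FPKM of RRN26 in atx3/4/5 and at 2.50 times in wild type. RRN5 stood at 26.1 times RRN26 in the mutant and 14.6 times in wild type. With 1 combined value per genotype, whether these ratios differ beyond the spread between libraries was not tested. In an intact mitochondrial ribosome the 3 RNAs are present in equal numbers.

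These few genes also carried most of the mitochondrial sum. Authors' FPKM values of the 146 members added up to 2276 in the mutant against 413 in wild type, a ratio of 5.51. That sum was 0.317% of the FPKM sum over all genes in the mutant and 0.0376% in wild type. RRN5 alone made up 75.6% of the mitochondrial sum in atx3/4/5 and 58.3% in wild type. RRN18 made up 11.2% and 10.02%, ATMG00030 7.53% and 14.6%, and RRN26 2.897% and 4.0%, each first in atx3/4/5 and then in wild type. Together the 4 called members held 97.2% of the sum in atx3/4/5 and 86.9% in wild type, and the 10 highest members held 98.6% and 94.5%.

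Because FPKM divides by length, the sum favours short loci. With FPKM multiplied by locus length, a measure closer to the number of fragments, RRN18 became the leading member, with 50.1% of the mitochondrial total in atx3/4/5 and 36.9% in wild type. RRN5 then held 20.6% and 13.1%, RRN26 17.2% and 19.6%, and ATMG00030 5.63% and 9.0%. The 4 members together held 93.4% of the length-weighted total in the mutant and 78.6% in wild type. The other 142 members held 2.75% of the FPKM sum in the mutant and 13.1% in wild type, and 6.56% and 21.4% of the length-weighted total.

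**Figure D2:**
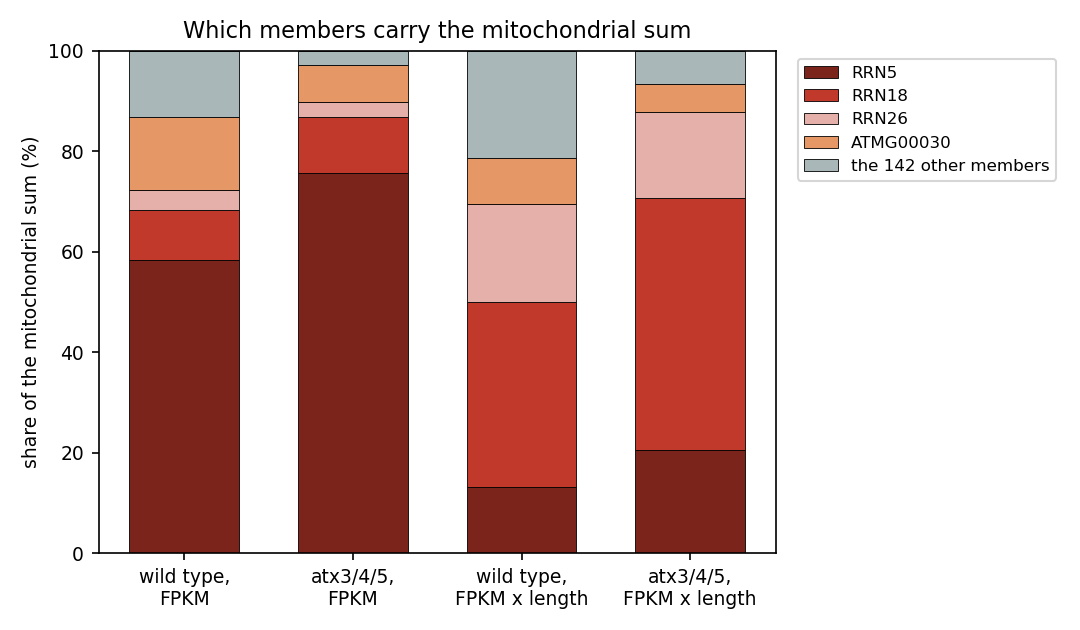
Share of the mitochondrial sum (y axis, percent) held by RRN5, RRN18, RRN26, ATMG00030 and the 142 other members in wild type and atx3/4/5, from the authors' FPKM (left pair of bars) and from FPKM multiplied by locus length (right pair). The 142 other members hold the smaller share in atx3/4/5 by both measures.

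The 142 members that were not called had an authors' FPKM sum of 62.6 in the mutant against 54.1 in wild type, a ratio of 1.16. Most members were hardly measured: 80 of the 146 members were listed at 0 in both genotypes, 52 were above 0 in both, 12 were above 0 in atx3/4/5 alone and 2 in wild type alone. The median FPKM over all members was 0 in each genotype, and 13 members had an FPKM of at least 1 in both. All 20 members with a locus under 100 bp were listed at 0 in both genotypes. Of the 52 members above 0 in both, 38 had the higher value in the mutant against 14 in wild type, with a median log2 ratio of 0.30, against -0.04 over all tested genes above 0. Of the 38, 7 untested members had log2 ratios between 0.25 and 0.35, a band in which low values of the table pile up (219 untested genes, with a median ratio of 1.23), and the median lies in that band.

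Complex I, the NADH dehydrogenase at the entry of the respiratory chain, had 9 named members, of which 2 were tested and 0 were called. NAD4L (ATMG00650) was the highest of them, with an authors' FPKM of 0.865 in the mutant against 1.011 in wild type, and its q was 0.920 in the authors' deposited table. NAD9 (ATMG00070) had 0.773 and 0.450, with a deposited q of 0.658. NAD7 and NAD4 were each below an FPKM of 1 in both genotypes and were not tested. NAD3 and NAD6 were listed at 0 in both. Plant NAD1, NAD2 and NAD5 are made from separate pieces of the genome that are joined by trans-splicing, and each name was paired here with 1 locus only. The NAD5 locus (ATMG00513) had 0.0592 and 0.0643, the NAD2 locus (ATMG00285) had 0.0543 in the mutant and was listed at 0 in wild type, and the NAD1 locus (ATMG01275, 387 bp) was listed at 0 in both, so these values do not stand for the whole genes. COB (ATMG00220), cytochrome b of complex III, was also listed at 0 in both genotypes. Chromosome 2 carries an insertion of mitochondrial DNA, described below. In it AT2G07711, 2277 bp long against 2275 bp for ATMG00513, had 5.03 in the mutant against 14.3 in wild type (deposited q 0.0223). It lies outside the 1 bp tolerance used for pairing below. Whether reads of NAD5 or of other members were placed on such copies was not tested.

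The group list held 6 more identifiers, 5 entered for complex I and 1 for ATP synthase, that could not be paired with a name, of which 5 were counted among the unnamed members of at least 100 bp and 1 among the loci under 100 bp. Authors' FPKM values in the mutant and wild type were 0.591 and 0.575 for ATMG00060, 0.574 and 0.234 for ATMG01120, and 0.225 and 0.104 for ATMG01320. ATMG00516, which shares its locus with MATR, had 0.347 in the mutant and was listed at 0 in wild type, and ATMG00665, under 100 bp, was listed at 0 in both. ATMG01170, the only one of the 6 that was tested, had 0.932 and 0.706, with a q of 0.740 in the deposited table. With them, complex I had 14 listed members, of which 2 were tested and 0 called, and a sum ratio of 1.397 in place of 1.15. ATP synthase then had 6, of which 4 were tested and 0 called, and a sum ratio of 0.925.

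All 3 members for complex IV, the cytochrome c oxidase, were tested, and 0 were called. COX1 (ATMG01360), its catalytic subunit, had an authors' FPKM of 2.14 in the mutant against 1.05 in wild type, and the authors' deposited table listed q = 0.257. COX2 (ATMG00160) had 1.58 and 0.439, with a deposited p of 0.0515 and q of 0.199. COX3 (ATMG00730) had 0.931 and 0.803, with a deposited q of 0.869. Each value was higher in atx3/4/5, and the FPKM sum of the group had a ratio of 2.03, which no call accompanied.

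ATP synthase had 5 named members, of which 3 were tested and 0 called. ATP9 (ATMG01080), the subunit that forms the membrane ring, was the highest of the named protein-coding members, at an authors' FPKM of 9.18 in the mutant against 10.2 in wild type (q = 0.895 in the authors' deposited table). ATP4 (ATMG00640) had 1.04 and 0.977, with a deposited q of 0.964. ATP6-1 (ATMG00410), of the proton channel, had 0.588 and 0.884, with a deposited q of 0.636. ATP1 (ATMG01190) had 0.0560 and 0.0305 and was not tested, and ATP8 (ATMG00480) was listed at 0 in both. The FPKM sum of the group was 10.9 in the mutant against 12.1 in wild type, a ratio of 0.901, which became 1.38 with values taken as a share of the nuclear sum.

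Cytochrome c maturation, the attachment of heme to cytochrome c, had 5 members, of which CCMB (ATMG00110) alone was tested. The authors' FPKM of CCMB was 1.10 in the mutant against 0.327 in wild type, and the authors' deposited table listed q = 0.312. CCMFN2 (ATMG00960) had 0.665 in atx3/4/5 and was listed at 0 in wild type, and CCMC, CCMFC and CCMFN1 were listed at 0 in both. Of 7 members for mitochondrial ribosomal proteins, 2 were tested and 0 called. RPL16 (ATMG00080) had 3.56 and 1.94, with a deposited q of 0.602, and RPS3 (ATMG00090) had 1.75 and 0.741, with a deposited q of 0.327. RPL16 and RPS3 overlap and have 1 locus in the table, so their reads cannot be told apart with certainty. RPL2 had 0.362 and 0.181 and was not tested, and RPL5, RPS4, RPS7 and RPS12 were listed at 0 in both. MATR, a maturase that acts in intron splicing, had 0.0557 in atx3/4/5 and was listed at 0 in wild type. MTTB, a membrane transport protein, had 0.0689 and 0.0563.

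Over the 32 named protein-coding members, the authors' FPKM sum was 25.3 in the mutant against 19.5 in wild type, a ratio of 1.297. The deposited test called 0 of the 11 that were tested, and 0 had an unadjusted p under 0.05. Over all tested genes the shares were 10.3% and 25.6%. With 11 tested, 0 calls cannot be told apart from the share of 10.3%. The summed FPKM of the 3 ribosomal RNAs was 2042 and 299, a ratio of 6.83. The difference between these ratios was not tested, since the table gives 1 value per genotype.

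Among the 91 unnamed members of at least 100 bp, ATMG00030 was the only one called of 15 tested, with the limit of the RRN26 ends given above. ATMG00660 was the next highest, at an authors' FPKM of 9.38 in the mutant against 8.79 in wild type, and the authors' deposited table listed q = 0.930. ATMG01220 had 3.36 and 3.25, and ATMG00690 had 3.34 and 2.955. These 3 lay near equality in both genotypes. ATMG01130 had 2.40 and 1.87, with a deposited q of 0.812. ATMG00670 had 1.34 in the mutant against 2.949 in wild type, a log2 ratio of -1.14 with a deposited q of 0.273. ATMG00360 was listed at 0 in atx3/4/5 and had 3.44 in wild type, with a deposited q of 0.274. It shares its locus with another member.

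The called members sit in 2 stretches on either side of the origin of the map, and their neighbours were low in both genotypes. ATMG01370 ends 9 bp before RRN5 and had an authors' FPKM of 2.79 in the mutant against 1.403 in wild type, and the authors' deposited table listed q = 0.491. ATMG01400 begins 440 bp after RRN18, had 0.695 in atx3/4/5 and was listed at 0 in wild type. Its p of 0.00925 and q of 0.0710 in the authors' deposited table came closest to a call among the 25 members that were tested and not called. On the other side, ATMG00010, which ends 8113 bp before RRN26, had 0.143 and 0.349. ATMG00040 begins 4602 bp after ATMG00030 and had 0.596 and 0.659. It shares its locus with ATMG00050, which had 1.13 and 0.283, with a deposited q of 0.602.

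**Figure D3:**
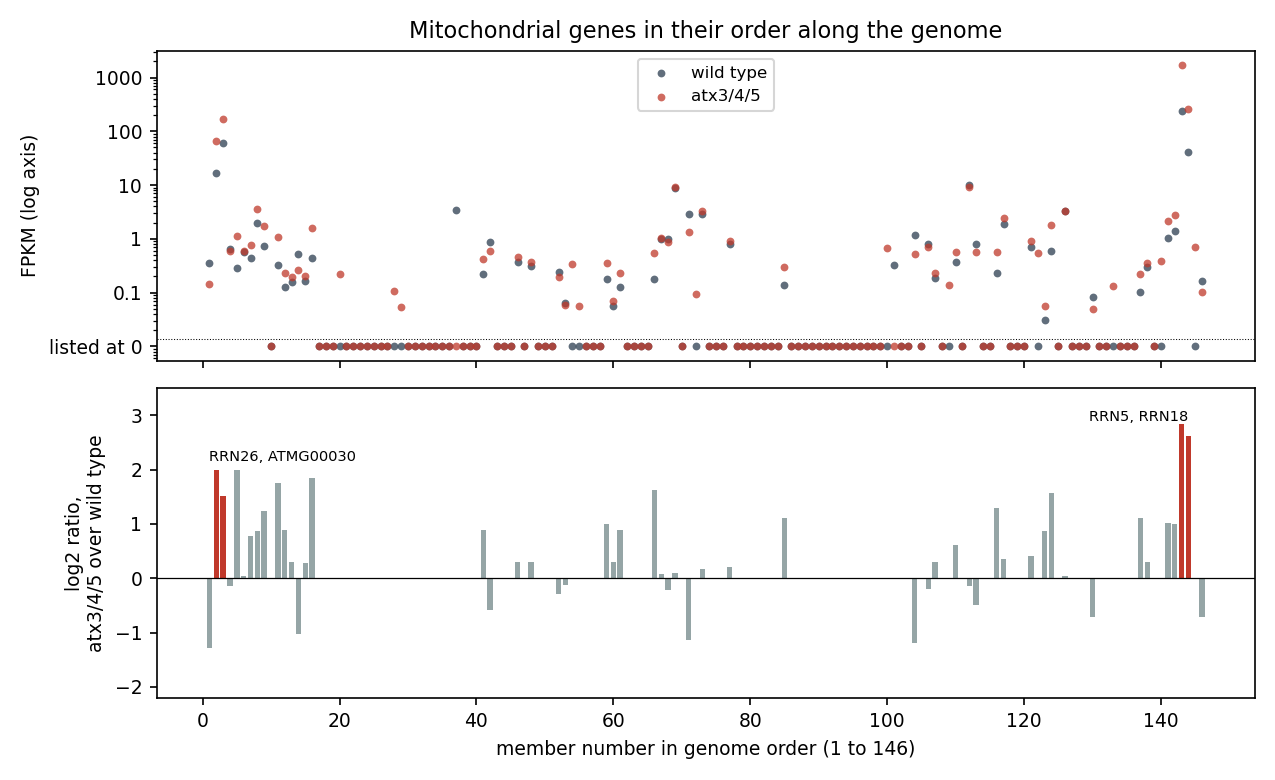
The 146 mitochondrial members in their order along the genome (x axis): the upper panel gives the authors' FPKM in wild type and atx3/4/5 (log axis, with members listed at 0 on the bottom line), and the lower panel the log2 ratio of the 52 members above 0 in both, with called members in red. The 4 called members sit at the 2 ends of the map, and long runs between them are listed at 0.

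The log2 ratio of nuclear genes in this table varied with locus length, so each member was also compared with nuclear genes of the same length class, out of 10 classes of equal size. Centred in this way, the log2 ratios were 3.47 for RRN5, 2.79 for RRN18, 1.95 for RRN26 and 2.14 for ATMG00030, and the median over the 52 members above 0 in both was 0.91. The sum of FPKM over nuclear genes had a ratio of 0.652, and taking each gene as a share of it adds 0.62 to every log2 ratio. That sum holds AT1G29930, a leaf gene with an authors' FPKM of 14877 in the mutant and 0 in wild type. The authors' deposited table marks it as having too many reads to be processed, so that 0 is not a measured absence. Without it the ratio was 0.639. On that scale 46 of the 52 members were higher in atx3/4/5 and 6 lower, in place of 38 and 14. The 4 called members were higher on every scale tried, but the shifts were smaller than their log2 ratios, so none could have reversed them.

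The other organelle genome in the same libraries showed no call in the direction of the mitochondrial ribosomal RNAs. Of 133 plastid genes, 83 were tested, of which the authors' deposited test called 0 higher and 14 lower, where the shares over all tested genes were 4.92% and 5.4%. An unadjusted p under 0.05 was reached by 1 with the higher value in the mutant and 27 with the lower, against 11.9% and 13.7% of all tested genes. The FPKM sum of plastid genes was 5057 in the mutant against 10122 in wild type, a ratio of 0.500, or 0.766 as a share of the nuclear sum. The 3 plastid loci that could be named as ribosomal RNA by their start and end had low values. Further plastid loci for ribosomal RNA, if in the table, were not looked up. Whether reads were placed on other loci is unknown, so the 3 loci do not give the level of plastid ribosomal RNA in the libraries. Authors' FPKM values were 0.0380 and 0.0313 for rrn16S and 0.443 and 0.369 for rrn23S, and rrn4.5S was listed at 0 in both, none of them tested. AT3G41768, a nuclear locus annotated as ribosomal RNA, had 165 in the mutant against 143 in wild type, with a deposited q of 0.849. AT2G01010, annotated likewise, had 11.5 and 0.0255, with a deposited q of 0.469. How much ribosomal RNA each library preparation let through is unknown, and its part in the values of RRN5, RRN18 and RRN26 was not tested.

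Most subunits of the respiratory chain and the ATP synthase are nuclear genes. Of 40 such genes, 39 were tested in the authors' deposited table and 0 were called, where 10.3% of all tested genes were called. An unadjusted p under 0.05 was reached by 2 genes with the higher value in the mutant and 3 with the lower, where the shares over all tested genes were 11.9% and 13.7%. Their median log2 ratio was -0.17, with 10 genes higher and 29 lower in atx3/4/5, which turned to 0.45, with 28 higher and 11 lower, as a share of the nuclear sum. Named are the 2 genes of each list that were highest in wild type. For complex I, AT5G11770 had an authors' FPKM of 197 in the mutant against 216 in wild type, and FRO1 had 119 and 211. For complex II, the succinate dehydrogenase, SDH2-1 had 34.0 and 38.2, and SDH2-2 had 35.6 and 36.0.

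For complex III and cytochrome c, the 2 highest genes in wild type were AT5G40810, with an authors' FPKM of 104 in the mutant against 201 in wild type, and AT3G27240, with 86.6 and 170.1. For complex IV they were AT4G37830, with 340.5 and 635, and AT2G47380, with 195 and 377. For ATP synthase they were AT1G51650, with 287 and 447, and AT5G47030, with 251 and 375. Of the 40 nuclear genes, 39 were above ATP9 in FPKM in both genotypes, and the other, SDH1-2, had 0.0416 in the mutant and was listed at 0 in wild type. Levels of the 2 genomes in an mRNA library are not their levels in the cell.

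A list of 15 nuclear genes for mitochondrial RNA synthesis and processing contained 3 called genes, all higher in atx3/4/5 (against 4.92% of all tested genes), and 0 called lower. At an unadjusted p under 0.05, 5 were higher and 0 lower, against 11.9% and 13.7% of all tested genes. The median log2 ratio was 0.56, and 14 of the 15 had the higher value in atx3/4/5. Centred by locus length, the median was 0.39, and fewer of the 15 lay above 0. PMH1 (AT3G22310), a mitochondrial RNA helicase of the DEAD-box family, had an authors' FPKM of 55.2 in the mutant against 18.1 in wild type, and the authors' deposited table listed q = 0.0139. Its close relative PMH2 (AT3G22330) had 43.0 and 31.8, with a deposited q of 0.584.

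AT5G14580 had an authors' FPKM of 2.68 in the mutant against 0.340 in wild type, 7.87-fold higher, and the authors' deposited table listed q = 0.001836. AT5G15700 had 2.52 and 0.447, 5.64-fold higher, with a deposited q of 0.00325. Neither gene has a name in the gene table used here, and whether either is a polymerase is not given there. RNA polymerases of mitochondria on this list include MGP3 (AT1G68990), with 4.71 and 1.68, a deposited p of 0.0385 and q of 0.168. Centred by locus length, log2 ratios fell from 2.98 to 2.30 for AT5G14580 and from 2.50 to 1.82 for AT5G15700. They fell from 1.61 to 1.57 for PMH1 and from 1.49 to 0.81 for MGP3. Some genes of the list with shorter loci rose instead. The share of 4.92% given above covers tested genes of all locus lengths. The called genes of this list and the mitochondrial ribosomal RNAs moved in the same direction, and whether they are linked was not tested.

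**Figure D4:**
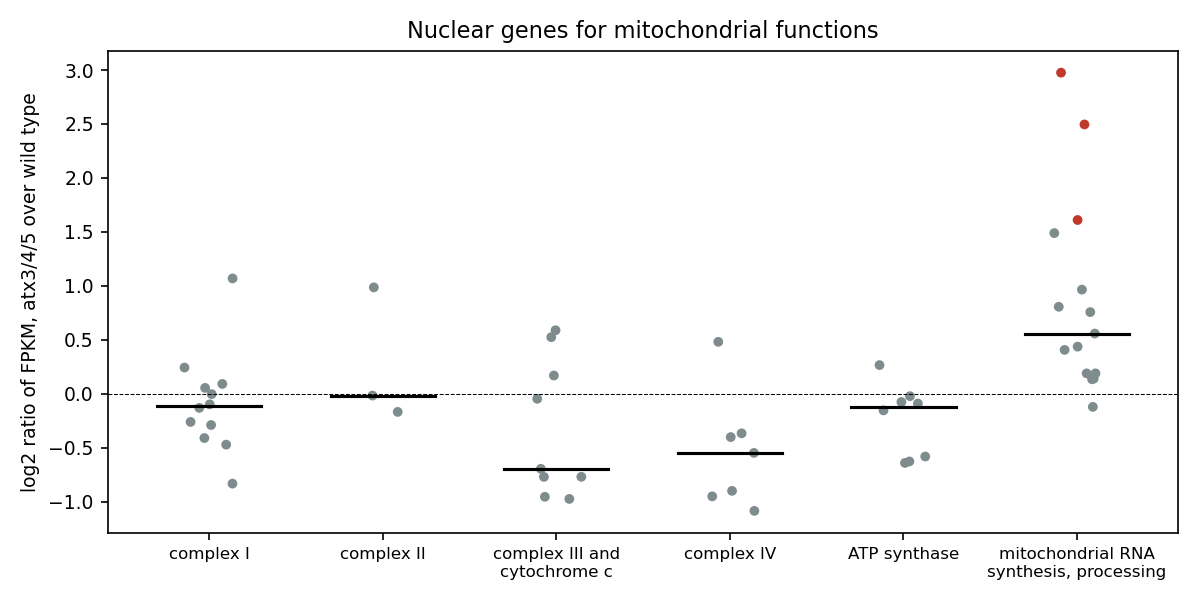
Log2 ratio of the authors' FPKM, atx3/4/5 over wild type (y axis), for nuclear genes of 6 lists (x axis), with called genes in red, other genes in grey and the list median as a black line. In the list for mitochondrial RNA synthesis and processing, 14 of 15 genes lie above 0, and all 3 called genes are there. The ratios shown are not centred by locus length.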

How the data were processed

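RNA sequencing of 2 wild-type and 2 atx3/4/5 leaf samples was used as 1 deposited table. Per the submitters' processing notes, the tools include TopHat2 2.0.10 and Cufflinks 2.2.1, and the build is TAIR10. Bowtie 1.0.1 and MACS 1.4.2, also named there, are usual for chromatin reads. The authors deposited 1 FPKM value per gene and genotype, and a p-value and q-value per gene in a Cuffdiff column layout, per the file headers. Replicates are already combined, so no test of samples was run here, read depth is unknown and its precision cannot be given. The labels do not tie libraries to separate plants, and the p-values may then measure only technical spread. Whether counting used strand is not stated, so overlapping and antisense genes cannot be told apart. The table listed 14535 genes as not tested and 1 as having too many reads. It holds 0 unused columns of per-sample values.

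With Python 3.11.15, pandas 2.3.3 and numpy 2.4.6, log2 ratios, sums, shares and medians were computed from the deposited FPKM. Length centring subtracts the median log2 ratio of nuclear genes within each of 10 classes of locus length, and was tested on simulated data. Members and gene lists were chosen with earlier results of these data known. Named are all called members, the 10 highest per genotype, the 10 largest log2 ratios at FPKM of at least 1 in both, members at FPKM of at least 1 with 0 in the other genotype, the group members, and of the nuclear lists the called genes and the 2 highest in wild type. Other genes named (MGP3, the neighbours of called members, the identifiers without a paired name, SDH1-2, and the plastid and nuclear ribosomal RNAs) were chosen after their values were seen. Called genes of the chromosome 2 insertion were also named after their values were seen.

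The deposited table gives ATMG identifiers without names. Of 41 identifiers on the group list, 23 were paired with names of a RefSeq table (assembly TAIR10.1) by locus length within 3 bp and 12 by spacing to paired neighbours, and the 6 others were counted with unnamed members (5) or loci under 100 bp (1) and are given by identifier. RRN26 was paired across the origin, with 2568 bp in the deposited table and 3169 bp in RefSeq. Of the 146 members, 23 share a locus with another gene. Positions are the authors', counted from 1.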

Additional observations from a re-analysis of the deposited data

How the results depend on the processing

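No paired analysis was possible because the table gives 1 combined value per genotype and its columns carry no replicate, and for the same reason no replicate could be left out. With no spread known, a value counts as moved past 1.5 times. The number of members called higher, 4, became 3 at q under 0.01, 5 at q under 0.1 and 5 at an unadjusted p under 0.05, and stayed 4 with FPKM of at least 1 in both genotypes or a locus of its own, with 0 lower each time. The median log2 ratio of 0.30 ranged from 0 with a pseudocount of 1 over all members to 0.91 centred by locus length. The mitochondrial sum ratio of 5.51 became 3.22 without RRN5, 2.05 without ribosomal RNA and short loci, and 8.44 as a share of the nuclear sum, and 1.16 without the 4 called members. The leading member's share, 75.6% in atx3/4/5 and 58.3% in wild type, became 50.1% and 36.9% with FPKM multiplied by length, led by RRN18 in place of RRN5. As a share of the nuclear sum, group ratios became 1.77 for complex I, 3.11 for complex IV, 8.30 for cytochrome c maturation, 3.04 for ribosomal proteins, 10.5 for ribosomal RNA and 3.37 for unnamed members, and the ATP synthase ratio of 0.901 turned to 1.38. These changes follow from the alternatives' construction: fewer members, length weights or 1 common factor. With identifiers that had no paired name, the ratios were 1.397 for complex I and 0.925 for ATP synthase. Alternatives without the called members, with these identifiers, for groups, for nuclear lists and for single members were chosen after seeing the data. Leaving out members with a chromosome 2 copy of the same protein was not run, since no protein sequences were used here. Leaving out members paired by length and spacing took its place. None of the paired members was above 0 in both genotypes, so the median of 0.30 could not change.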

Other observations

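Chromosome 2 of the Columbia accession carries a large insertion of mitochondrial DNA and near-identical copies can share reads, which was not tested. The ends of the insertion were not determined here, and the region taken spans the genes paired below, 3371832 to 3507323 on TAIR10. Its 65 genes in the authors' deposited table had an FPKM sum of 42.6 in the mutant against 45.1 in wild type. Of them, 30 were listed at 0 in both. Of 12 tested, AT2G07733 was called higher in atx3/4/5 (2.32 against 0.326, q 0.0287 in the authors' deposited table). AT2G07711 was called lower (5.03 against 14.3, deposited q 0.0223), where 4.92% of all tested genes were called higher and 5.4% lower. The highest FPKM in the region, 14.3, was below that of RRN26 in wild type. By length within 1 bp and spacing within 5 bp, among members of at least 300 bp, 11 were paired with genes of this insertion, and 9 of the 11 were listed at 0 in both genotypes. ATMG00360, listed at 0 in atx3/4/5 and at an authors' FPKM of 3.44 in wild type, was paired with AT2G07739, which had 0.471 and 0.341, and with AT2G07763, listed at 0 in both.

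Low values in the table fell on preferred ratios. Of 2669 untested genes above 0 in both genotypes, 324 had a log2 ratio of atx3/4/5 over wild type between -0.75 and -0.65 (median ratio 0.614), 219 between 0.25 and 0.35 (median ratio 1.23) and 135 between 0.85 and 0.95 (median ratio 1.85). These ratios stand to each other as 1, 2 and 3. Of the 25 untested members above 0 in both, 2 lay in the lowest of these bands, 7 in the middle one and 4 in the highest.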
